A study of Mus musculus with 10 samples.

Results

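The genes described here build and serve the cilium of the photoreceptor. They are a list of 37 genes for intraflagellar transport, its kinesin motors, the BBSome, the carriage of lipid-anchored proteins and the connecting cilium. Members were found in the array table by gene symbol, and 35 of the 37 were measured, each by 1 transcript cluster, among 19505 genes. Kif17 and Arl6 were not analysed here.

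A photoreceptor's outer segment is a modified primary cilium. Everything made in the inner segment, including opsin and the transducin subunits, reaches the light-sensitive discs through a thin connecting cilium. Intraflagellar transport (IFT) trains move cargo along its microtubules, outward with kinesin-2 and the IFT-B complex and back with dynein-2 and the IFT-A complex. The BBSome is an adaptor that takes membrane proteins out of the cilium, and Arl3 releases lipid-anchored proteins from their carriers inside it. Inherited defects in many of these genes cause retinal degeneration, alone or as part of a syndrome such as Bardet-Biedl, Joubert or Senior-Løken syndrome.

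Retinal RNA from mice of 5 groups was hybridised to 10 arrays, 2 per group, described as biological duplicates. The 3 Cln3Δex7/8 (CLN3-deficient) groups carried a deletion in Cln3, the gene of a lysosomal membrane protein that is lost in juvenile neuronal ceroid lipofuscinosis, and were exposed to light under minocycline, exposed to light under the NaCl vehicle, or not exposed. The other 2 groups were wild-type retinas, exposed to high light or not exposed. Minocycline, a tetracycline that dampens microglial activity, was injected daily into the peritoneum at 45 mg per kg from the day before light. All mice carried a light-sensitive leucine variant of Rpe65 according to the methods, which give an age of 8 to 10 weeks. Before light, mice were dark-adapted for 16 h and their pupils were dilated. The methods do not say whether unexposed mice had either step. Balb/c is the strain label of the wild-type groups, whereas the protocol calls them littermates of the Cln3Δex7/8 mice. Per the protocol, high light was 15000 lux for 60 min, and the therapy study used 10000 lux for 30 min. The light-exposed groups of the 2 genotypes therefore differed in dose as well as genotype, and injection was given only to light-exposed Cln3Δex7/8 mice, so that injection and light cannot be told apart there. The day on which retinas were taken is not given for these arrays. Values are log2 signals, and a difference of 1 is a doubling.

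Promoter sequence was looked up because many ciliary genes carry an X-box, the paired site of RFX transcription factors. RefSeq promoters of 300 bases (250 before and 50 after a start, GRCm38.p6) were matched for 32 of the 35 members, giving 39 windows. The X-box was searched as GTTNCC, 1 to 3 bases of any kind, then GGNAAC, on both strands, which match the same place because the motif is close to a palindrome. It was found in 3 of the 39 windows (7.69%), against 0.776% of all 32851 promoters of this length. These 3 were those of Ift57, Bbs7 and Ahi1. The left arm alone, GTTGCC on either strand, was found in 13 of 39 windows (33.3%), against 12.5% of all promoters, and it lies inside all 3 X-boxes. The photoreceptor motif TAATCC, which CRX can bind, was found in 3 windows (7.69%), against 7.06% of all promoters. The 2 windows below are the X-box matches that lie before the start of a member called in a light comparison, with the match in capitals. They cover chr16:49699211-49699270 on the plus strand for Ift57, where the match begins at −60 from the start, and chr3:36613474-36613533 on the minus strand for Bbs7, where it begins at −121.
Ift57: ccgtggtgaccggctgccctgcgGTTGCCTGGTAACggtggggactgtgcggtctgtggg
Bbs7: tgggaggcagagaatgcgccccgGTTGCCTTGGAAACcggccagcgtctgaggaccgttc

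The promoters of Arl3, which was lower after light in both genotypes, and Iqcb1, which was higher, are shown for comparison as the 80 bases before each start, at chr19:46573183-46573262 on the minus strand and chr16:36828320-36828399 on the plus strand. No motif searched was found in either, so no letter is in capitals. Matches are descriptions of sequence and say nothing of binding in these retinas.
Arl3: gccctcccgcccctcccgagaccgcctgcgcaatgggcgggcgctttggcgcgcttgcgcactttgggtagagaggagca
Iqcb1: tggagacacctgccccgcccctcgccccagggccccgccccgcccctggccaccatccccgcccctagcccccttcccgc

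Several features of the arrays touch every comparison. Y-linked transcripts (3 genes) averaged 10.8 to 11.5 on 5 arrays, namely both NaCl arrays, both unexposed wild-type arrays and 1 minocycline array, and 3.34 to 3.69 on the other 5. Their presence thus runs one way in the light comparison of Cln3Δex7/8 retinas and the opposite way in that of wild-type retinas. Within the groups compared, sex and light cannot be told apart in either light comparison, for any member. Cln3 itself read 10.18 and 9.40 with minocycline, 10.13 and 9.46 with NaCl and 9.14 and 9.18 without light in Cln3Δex7/8 retinas, against 10.25 and 10.48 in light-exposed and 10.72 and 10.30 in unexposed wild-type retinas. The sources used here do not say where its probes lie relative to the deleted exons. Unexposed Cln3Δex7/8 array 1 stood apart in skeletal muscle markers (mean 9.58 over 6 genes, against 5.51 to 6.63 on the other 9 arrays, with Acta1 at 9.68). Minocycline array 2 stood apart in retinal pigment epithelium markers (mean 11.6 over 15 genes, against 8.32 to 10.4, with Rpe65 at 11.62). In rod markers, unexposed wild-type array 2 lay closer to the light-exposed arrays than its duplicate did, deviating from their means by 0.05 on array 2 and 0.56 on array 1. The same held for microglial and reactive Müller glia markers. It did not hold for cone markers (0.32 on array 2 and 0.25 on array 1) or ganglion cell markers (0.61 and 0.33). The lens crystallin Cryaa ranged over all arrays between 7.03 and 14.58. The rod markers Pde6g and Nrl were high on every array (14.42 to 16.48 and 13.71 to 15.66). Markers of motile cilia (7 of 10 measured) averaged 5.01 to 5.57 on every array, where the median gene read 7.14 to 7.25.

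**Figure D1:**
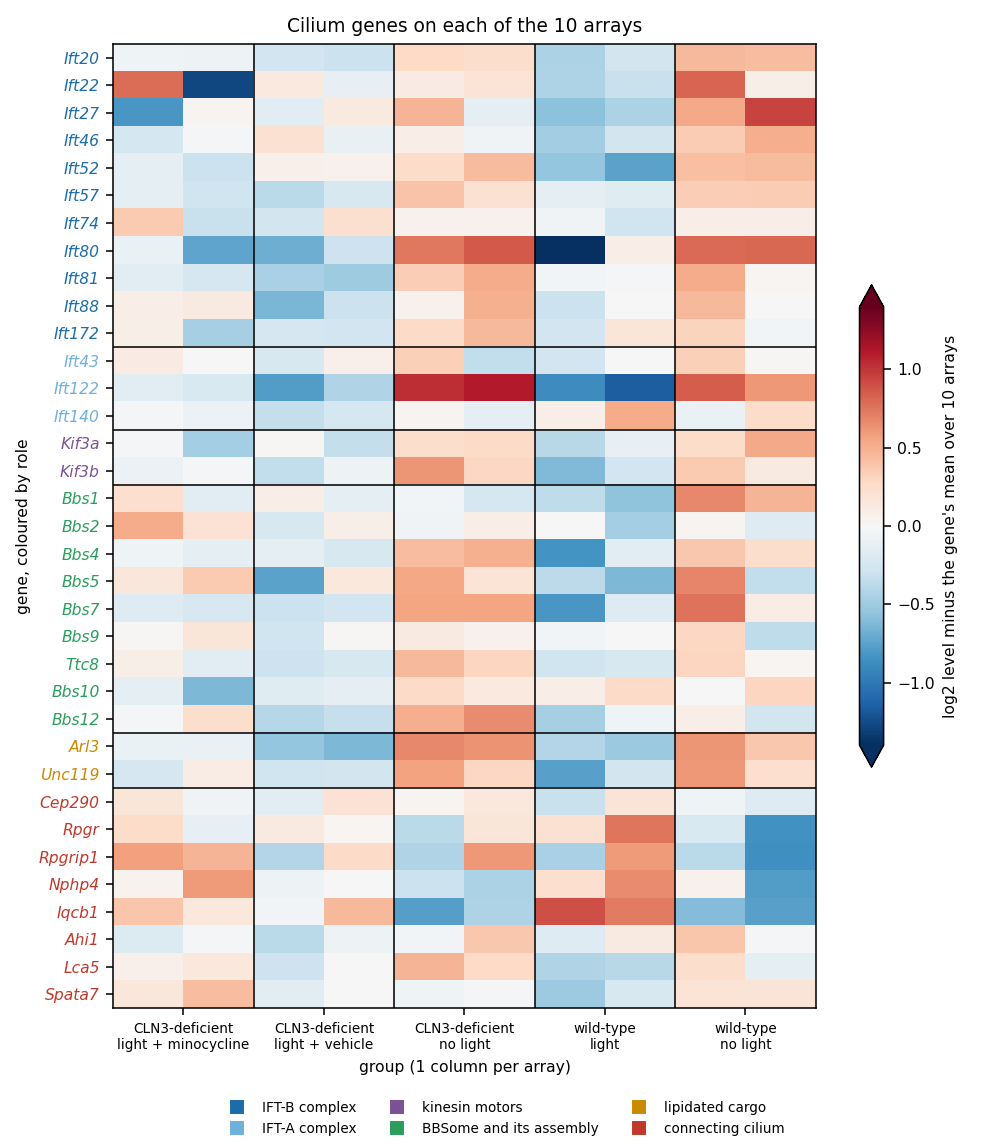
Log2 signal of each of the 35 measured members on each of the 10 arrays, as the difference from that gene's mean over all arrays, with genes grouped by role and arrays in the order minocycline, NaCl, unexposed Cln3Δex7/8, light-exposed wild type, unexposed wild type. Most transport and BBSome genes are lower on the light-exposed arrays, whereas the connecting cilium genes as a group do not follow that pattern. Among them, Lca5 is lower on the NaCl and light-exposed wild-type arrays than on the unexposed arrays of the same genotype.

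Averaged over the 35 members, the deviation from each gene's own mean was 0.04 and −0.09 on the minocycline arrays, −0.26 and −0.11 on the NaCl arrays and 0.23 and 0.24 on the unexposed Cln3Δex7/8 arrays, against −0.33 and −0.10 in light-exposed and 0.31 and 0.07 in unexposed wild-type retinas. The NaCl and light-exposed wild-type arrays were all below their unexposed counterparts. Over all 19505 genes the same measure stayed between −0.03 and 0.04. In bulk retina, fewer of the cells that express these genes, photoreceptors or others, and less RNA in each of them cannot be told apart.

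To see what light did to these genes in CLN3-deficient retinas, NaCl-treated light-exposed retinas were compared with unexposed ones. Of the 35 members, 8 were lower and 1 was higher at an adjusted P under 0.05 in limma, where 11.0% of all genes were lower and 6.57% higher. The median change of the members was −0.40, and 30 of them had a negative change, whereas the median over all genes was 0.01. On 22 members both exposed arrays lay below both unexposed arrays (32.7% of all genes did), on 2 they lay above (30.0% of all genes), and on 11 the arrays overlapped. The lower genes came from IFT-A, IFT-B, the BBSome group and the lipid cargo pair, and the higher one was a gene of the connecting cilium.

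Of the 3 IFT-A genes on the member list, Ift122, Ift140 and Ift43, Ift122 alone was called. Wdr35 and Wdr19, IFT-A subunits outside the member list, were also lower in this comparison and are described further below. Ift122, a core subunit needed for return transport, read 8.55 and 8.91 in NaCl-treated light-exposed retinas, against 10.37 and 10.44 in unexposed Cln3Δex7/8 retinas. Both exposed arrays lay well below both unexposed ones, and the groups did not overlap. Its level was 0.313 of the unexposed level (log2 −1.68, SE 0.21, adjusted P 0.00144), the largest fall of any member here. Ift140 (−0.24) and Ift43 (−0.07) were not called.

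Of the 11 IFT-B genes on the member list, 3 fell (Ift80, Ift81 and Ift57) and the median change was −0.55. Ift80, a peripheral subunit whose human gene is linked to a skeletal ciliopathy, read 10.55 and 10.95 in light-exposed retinas, against 11.98 and 12.10 without light. Its change was −1.29 (SE 0.41, adjusted P 0.0498), just inside the threshold. Ift81 binds tubulin together with Ift74, and it read 11.35 and 11.30 with light and NaCl, against 12.14 and 12.32 without light. The change in Ift81 was −0.91 (SE 0.21, adjusted P 0.0145), and its arrays did not overlap, whereas its partner Ift74 read 10.79 and 11.27 against 11.11 and 11.11 and overlapped. Ift57, a peripheral subunit with the X-box match printed above, read 10.66 and 10.82 with light, against 11.44 and 11.25 without. Its fall was −0.61 (SE 0.19, adjusted P 0.0492), near the threshold as well. Ift88, mutated in a mouse line with polycystic kidneys and degenerating photoreceptors, missed it with a change of −0.75 (adjusted P 0.0547), and Ift20, the subunit that also works at the Golgi, with −0.55 (adjusted P 0.0631). The other 6 IFT-B members lay between −0.61 and 0.04.

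Among the 9 measured members of the BBSome and its assembly, Bbs12, Bbs7 and Ttc8 fell, and the median change was −0.64 (−0.635 before rounding). Bbs12, a chaperonin-like protein that helps to assemble the BBSome, read 7.73 and 7.80 with light and NaCl, against 8.63 and 8.79 without light (−0.95, SE 0.22, adjusted P 0.0149). Its exposed arrays did not overlap the unexposed ones. Bbs7, a subunit of the BBSome core, read 12.22 and 12.25, against 13.07 on both unexposed arrays (−0.84, SE 0.26, adjusted P 0.0492). The 2 groups of Bbs7 values were tight, yet its standard error, which pools all groups, was larger than most because the wild-type arrays spread. Ttc8, also called Bbs8, read 13.24 and 13.30 with light, against 13.98 and 13.83 without (−0.64, SE 0.20, adjusted P 0.0475). Bbs4 (−0.65), Bbs5 (−0.67), Bbs10 (−0.36), Bbs9 (−0.23), Bbs2 (−0.09) and Bbs1 (0.12) were not called.

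Arl3 and Unc119 act together on lipid-anchored cargo. Unc119 carries myristoylated proteins such as rod transducin alpha, and the GTPase Arl3 makes it let go. Arl3 read 15.48 and 15.40 in NaCl-treated light-exposed retinas, against 16.70 and 16.65 in unexposed ones, a fall to 0.425 of the unexposed level (−1.24, SE 0.19, adjusted P 0.00264). The distance between the groups of Arl3 values was far larger than the distance within either. Unc119 read 17.42 and 17.44, against 18.26 and 17.99, and its change of −0.70 was not called (adjusted P 0.0695).

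Kif3a and Kif3b, the motor subunits of kinesin-2, changed by −0.42 and −0.67 and were not called (adjusted P 0.0596 for Kif3b). The 8 connecting cilium genes had a median change of −0.06 (−0.055 before rounding), and none was called lower. Iqcb1, or nephrocystin-5, which binds calmodulin and is mutated in human Senior-Løken syndrome, read 10.74 and 11.24 with light and NaCl, against 10.01 and 10.35 without light. It was 1.75 times the unexposed level (0.81, SE 0.23, adjusted P 0.0335), and both exposed arrays lay above both unexposed ones. The other 7 lay between −0.52 for Lca5 and 0.34 for Nphp4.

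These calls were few enough to depend on the arrays. Leaving out any 1 of the 4 arrays left 2 lower genes each time, Ift122 and Arl3. With quantile normalization or with each array centred on its median 4 members were lower, and with Y-linked transcripts entered as a covariate 0 were lower and 0 higher, the covariate then being estimated from the 2 minocycline arrays alone. With that covariate the members' median was −0.46 (−0.455), 30 were still negative, and 0 of all 19505 genes were lower or higher.

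**Figure D2:**
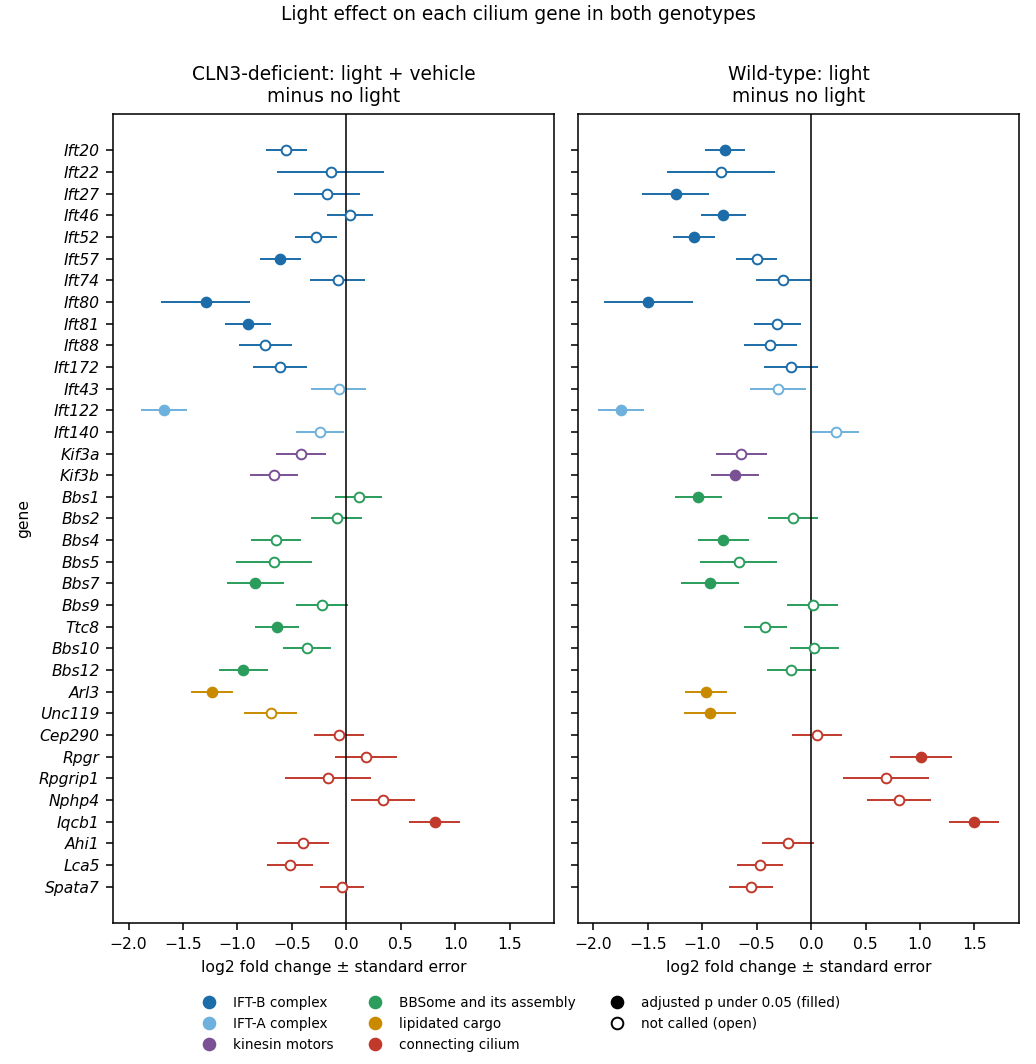
Log2 fold change of each measured member after light, in Cln3Δex7/8 retinas (NaCl with light against no light) and in wild-type retinas (light against no light), with bars of 1 standard error from limma and filled points for adjusted P under 0.05. Ift122, Ift80, Arl3 and Bbs7 are lower in both comparisons, and Iqcb1 is higher in both.

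The same question was asked in wild-type retinas, which had the higher light dose and no injection. Here 12 members were lower and 2 were higher, where 15.6% of all genes were lower and 10.5% higher. The median change was −0.47 (−0.465 before rounding) against 0.03 (0.025) over all genes, and 27 members had a negative change. Both exposed arrays lay below both unexposed ones for 22 members (31.8% of all genes) and above for 3 (31.2% of all genes), and 10 overlapped.

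Of the 11 IFT-B members, 5 fell and all 11 had a negative change, with a median of −0.79. Ift52, a subunit at the core of the complex, read 10.09 and 9.88 in light-exposed wild-type retinas, against 11.05 and 11.07 in unexposed ones (−1.08, SE 0.19, adjusted P 0.00358). Ift27, a small GTPase-like subunit through which the BBSome leaves the cilium, read 8.11 and 8.24, against 9.21 and 9.63 (−1.25, SE 0.30, adjusted P 0.0128). For both genes the exposed arrays were close together and clearly under the unexposed ones. Ift20 read 13.19 and 13.38 with light, against 14.09 and 14.06 without (−0.79, SE 0.19, adjusted P 0.0109). Ift46, which brings axonemal dyneins into flagella in algae, read 9.66 and 9.89, against 10.50 and 10.66 (−0.81, SE 0.21, adjusted P 0.0168). Neither overlapped its unexposed arrays. Ift80 was the uneven one, at 9.75 and 11.33 with light, against 12.03 and 12.04 without (−1.50, SE 0.41, adjusted P 0.0211). The size of the change in Ift80 depended on the array left out, being −0.71 without that array (adjusted P 0.151) and −2.28 without the other.

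Ift122 read 8.45 and 8.18 in light-exposed wild-type retinas, against 10.18 and 9.94 in unexposed ones, and fell to 0.298 of the unexposed level (adjusted P 8.49e-04). This too was the largest fall among the members, while the IFT-A genes Ift43 (−0.31) and Ift140 (0.23) were not called. Kif3b read 9.53 and 9.88 with light, against 10.52 and 10.28 (−0.70, SE 0.22, adjusted P 0.0387), and Kif3a changed by −0.64 without being called.

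Bbs1, Bbs7 and Bbs4 fell among the BBSome members, whose median was −0.42. Bbs1, the subunit that ARL6 recruits to the membrane, read 10.71 and 10.50 with light, against 11.74 and 11.54 without (−1.04, SE 0.22, adjusted P 0.00657). Its groups lay far apart compared with the distance between duplicates. Bbs7 (−0.93, SE 0.26, adjusted P 0.0247) and Bbs4 (−0.81, SE 0.23, adjusted P 0.0269) also lay below on both arrays, with light-exposed array 1 the lower in each, at 11.70 and 13.22. Arl3 read 15.61 and 15.50, against 16.64 and 16.40 (−0.97, SE 0.19, adjusted P 0.00514). Its cargo carrier Unc119 read 16.94 and 17.44, against 18.31 and 17.93 (−0.93, SE 0.24, adjusted P 0.0168). Both members of the lipid cargo pair were therefore lower in wild-type retinas.

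No connecting cilium gene was called lower in wild-type retinas either, and their median change was 0.37. At an unadjusted limma P under 0.05, 2 of the 8 were lower and 3 higher. Lca5 read 15.30 and 15.34 with light, against 15.97 and 15.60 without. Spata7 read 8.49 and 8.78, against 9.19 and 9.18, so neither gene overlapped. Iqcb1 read 11.68 and 11.51 with light, against 10.18 and 10.02 without, at 2.82 times the unexposed level (1.50, SE 0.23, adjusted P 0.00199). Rpgr, an X-linked gene whose protein sits in the connecting cilium and whose loss causes retinitis pigmentosa, read 12.44 and 12.98 with light, against 12.02 and 11.38 (1.01, SE 0.29, adjusted P 0.0252). The Rpgr arrays did not overlap, but Y-linked transcripts were on the unexposed arrays only. The sex of the mice and the light therefore cannot be told apart for this X-linked gene, nor for any other member. Rpgrip1, which anchors RPGR, changed by 0.69 and Nphp4, nephrocystin-4, by 0.81, neither called, and Spata7, a partner of RPGRIP1, by −0.55.

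Without light-exposed array 1, 4 members were lower, and without unexposed array 1 or 2, 7 were. Quantile normalization left 5 lower and 3 higher, and the covariate for Y-linked transcripts 2 lower and 1 higher, with a members' median of −0.40 (−0.395) and 622 lower genes over the whole table, against 3037 without the covariate.

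**Figure D3:**
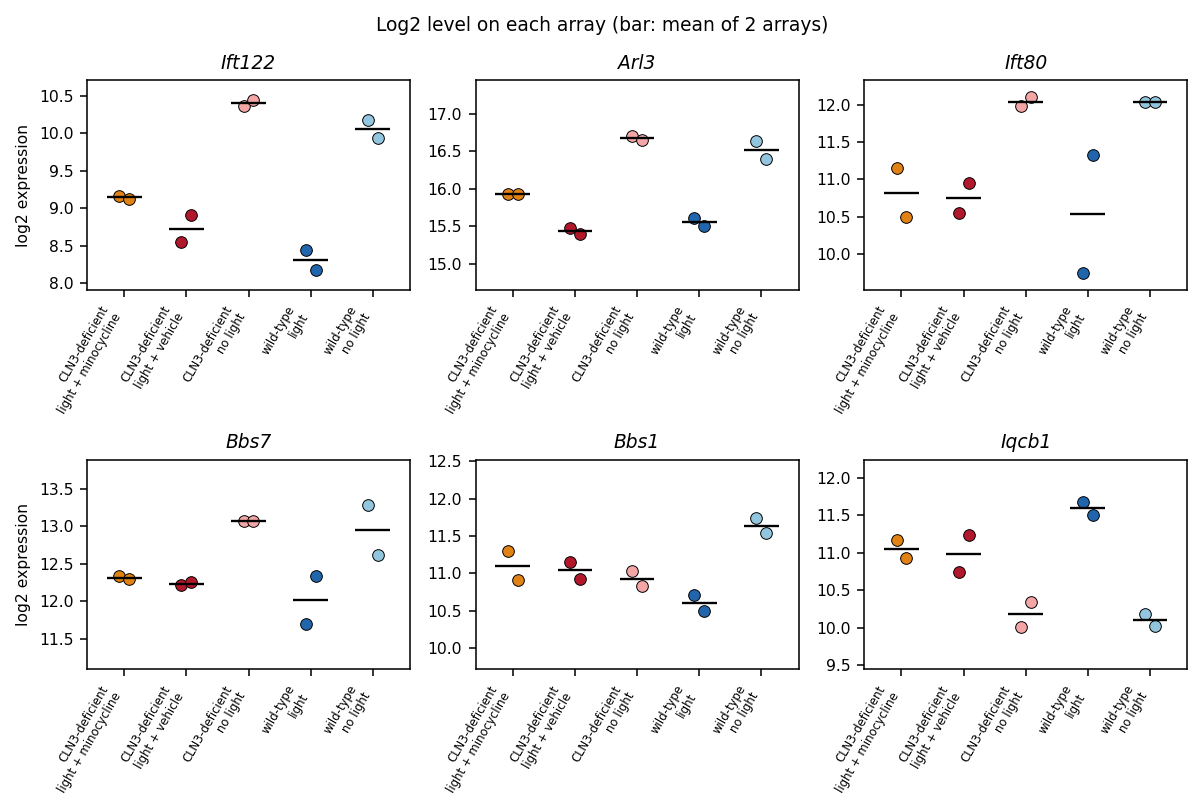
Log2 signal of 6 members on every array, with the groups from left to right minocycline, NaCl and unexposed Cln3Δex7/8, then light-exposed and unexposed wild type, points for single arrays and lines for group means. Ift122 and Arl3 are low in all 3 light-exposed groups and Iqcb1 is high in them, and Bbs1 passed the test in wild-type retinas, where its light-exposed arrays are the lowest of all 10.

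The 2 light comparisons share no array, but both use the same estimate of each gene's spread, pooled over all 10 arrays. Ift122, Ift80, Bbs7 and Arl3 were lower in both, which is 50% of the members lower in Cln3Δex7/8 retinas and 33.3% of those lower in wild-type retinas, and Iqcb1 was higher in both. Over all genes, 1529 were lower in both, 71.1% of those lower in Cln3Δex7/8 and 50.3% of those lower in wild-type retinas. In all, 25 members (71.4%) had a negative change in both genotypes, where 36.5% of all genes did, and 3 (8.57%) a positive change in both, where 38.3% did. Called in neither were 17 members (48.6%), against 67.1% of all genes. The difference between the genotypes' light effects was tested directly, and 0 members passed (0% of all genes did). At an unadjusted P under 0.05, 5 members did, where 11.1% of all genes did. Bbs1 had the lowest P of these, its light effect being 1.15 higher in Cln3Δex7/8 than in wild-type retinas (SE 0.31, adjusted P 0.222). The others were Ift27 (1.07), Ift46 (0.84), Ift52 (0.80) and Bbs12 (−0.77). Dose, injection and Y-linked transcripts differ along with genotype in this test, the last running in opposite directions in the 2 light comparisons.

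Minocycline was compared with NaCl in light-exposed Cln3Δex7/8 retinas. No member passed the test, and 3 genes of 19505 did (0.0154%). The median change of the members was 0.13, and 28 had a positive change, where 50.4% of all genes did. Among the 5593 genes with a mean of 10 or more, 3449 had a positive change (median 0.07). Of the 24 members above that mean 20 did (median 0.11), and of 29 rod markers 28 did. Both minocycline arrays lay above both NaCl arrays for 16 members (17.9% of all genes) and below for 1, Ift52 (17.4% of all genes). At an unadjusted P under 0.05 there were 2 members, Arl3 and Ift88, where 6.55% of all genes passed. Arl3 read 15.93 on both minocycline arrays, against 15.48 and 15.40 with NaCl (0.49, SE 0.19, adjusted P 0.706), and Ift88 9.26 and 9.29, against 8.53 and 8.87 (0.57, SE 0.24, adjusted P 0.741). Neither gene overlapped between the groups. Ift122 read 9.17 and 9.12 with minocycline, against 8.55 and 8.91 with NaCl (0.42, adjusted P 0.811). Ift22, a small GTPase-like subunit of IFT-B, had the largest standard error of all members (0.49), its minocycline arrays reading 10.60 and 8.54. Array 2 of this group also carried the high pigment epithelium markers, and the part of these markers in the members' values was not tested.

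Against unexposed Cln3Δex7/8 retinas, minocycline-treated light-exposed retinas had 2 members lower and 1 higher, where 6.74% of all genes were lower and 3.77% higher, and the median change was −0.33. This comparison uses the same unexposed arrays as that of NaCl-treated retinas. Ift122 was −1.26 (SE 0.21, adjusted P 0.00677) with minocycline, and −1.68 with NaCl. Arl3 was −0.75 with minocycline (adjusted P 0.0311) and −1.24 with NaCl, and Iqcb1 was 0.87 (adjusted P 0.0367) and 0.81. Ift80 (−1.22), Ift81 (−0.63), Bbs7 (−0.76), Ift57 (−0.51), Bbs12 (−0.47) and Ttc8 (−0.41), which were lower with NaCl, were not called with minocycline. That a gene passes in one comparison and not in the other does not show a difference between them, and the direct test against NaCl called none. Without either unexposed array, 0 members were lower and 0 higher.

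The genotypes were compared without light and after light. Y-linked transcripts were on the wild-type arrays only without light, and on the Cln3Δex7/8 arrays only after light. Sex and genotype therefore cannot be told apart in either comparison. Between unexposed Cln3Δex7/8 and wild-type retinas 0 members were called, against 0.0461% of all genes, and 2 passed at an unadjusted P under 0.05 (4.35% of all genes). Bbs1 read 11.03 and 10.83 in Cln3Δex7/8 retinas, against 11.74 and 11.54 in wild-type retinas (−0.71, adjusted P 0.903), and Bbs12 8.63 and 8.79, against 8.22 and 7.87 (0.67, adjusted P 0.940). After light, between NaCl-treated Cln3Δex7/8 and wild-type retinas, 0 members were called as well (0.800% of all genes), and 3 passed at an unadjusted P under 0.05 (15.3% of all genes). These were Ift52 (0.71, adjusted P 0.117), Iqcb1 (−0.61) and Ift140 (−0.60). Ift52 read 10.70 and 10.69 in light-exposed Cln3Δex7/8 retinas, against 10.09 and 9.88 in light-exposed wild-type retinas, with no overlap.

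**Figure D4:**
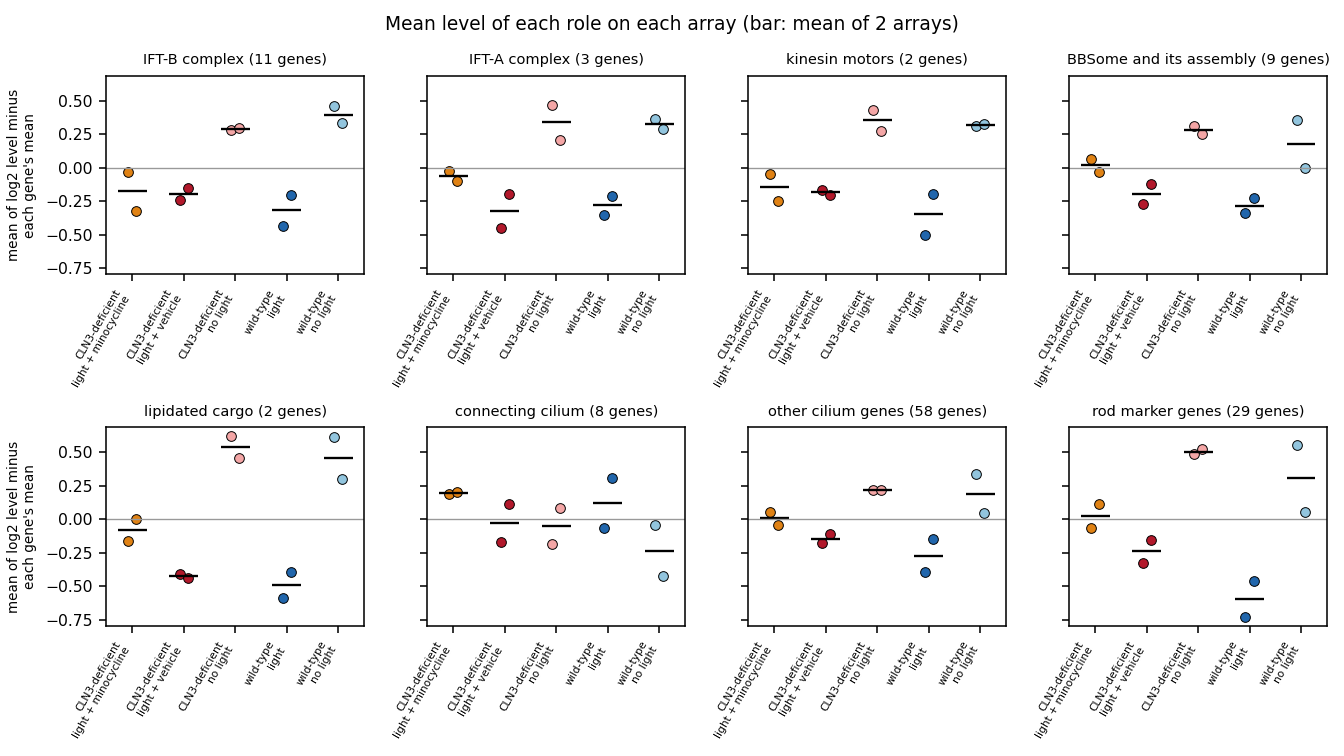
Mean deviation of each role's genes from their own means (log2) on every array, 1 panel per role plus panels for 58 other ciliary genes and 29 rod markers, with points for arrays, bars for group means and the groups in the order minocycline, NaCl and unexposed Cln3Δex7/8, then light-exposed and unexposed wild type. In every panel but that of the connecting cilium genes, which overlap, each NaCl and light-exposed wild-type array is lower than all unexposed arrays. This includes the panels of other ciliary genes and rod markers.

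Other genes of the ciliary pathway were counted from a further list of 62, of which 58 were measured. After light, 14 of the 58 were lower and 0 higher in Cln3Δex7/8 retinas (median −0.38), and 21 were lower and 2 higher in wild-type retinas (median −0.51), beside the background shares given above. With minocycline against no light, 8 were lower and 2 higher. The 14 measured genes of IFT and dynein-2 had 5 lower in each genotype. In Cln3Δex7/8 retinas the largest falls were those of Poc5, a centriole protein (−1.34, adjusted P 0.00341), Wdr35, a subunit of IFT-A (−1.34, adjusted P 0.00341), and Rp1l1, a protein of the photoreceptor axoneme (−1.21, adjusted P 0.0236). Wdr35 read 9.76 and 10.01 with light and NaCl, against 11.16 and 11.28 without light, and Wdr19, another IFT-A subunit, also fell (−1.09). Kifap3, which joins the kinesin-2 motors to their cargo, fell in both genotypes (−0.97 in Cln3Δex7/8 and −0.67 in wild-type retinas), as did Arl2bp, a partner of ARL2 and ARL3 (−1.15 and −0.99). Pde6d, the carrier of prenylated cargo that Arl3 also unloads, fell in wild-type retinas (−1.11). These last 4 genes were picked for their ties to members after their values were known.

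In wild-type retinas the largest falls of the further list were those of Tmem237 (−1.50, adjusted P 0.0174) and Tmem216 (−1.33, adjusted P 0.00571), membrane proteins of the transition zone, and Topors (−1.36, adjusted P 0.00442), a ubiquitin ligase found at the photoreceptor cilium. Tmem237 read 8.98 and 9.12 with light, against 11.31 and 9.78 without, so that its unexposed arrays were far apart, and without unexposed array 1 its change was −0.73 and not called. The 2 genes that rose were Pcm1, which scaffolds centriolar satellites (0.88, adjusted P 0.0141), and Cc2d2a, a transition zone protein (0.83, adjusted P 0.0213). Pcm1 read 13.78 and 13.43 with light, against 12.53 and 12.93 without. The transition zone genes had 7 of 13 lower and 1 higher in wild-type retinas, and 2 of 13 lower and 0 higher in Cln3Δex7/8 retinas. Between the genotypes after light, Tmem138 was the only gene of the 58 called (1.14, adjusted P 0.0496).

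Some markers of rods, cones and ganglion cells were lower after light, whereas no bipolar cell marker was called lower. Of 9 measured bipolar cell markers, 0 were lower and 2 higher in each genotype. Their medians were −0.015 in Cln3Δex7/8 and −0.28 in wild-type retinas. Of 29 measured rod genes, 13 were lower and 0 higher after light in Cln3Δex7/8 retinas (median −0.74) and 17 were lower and 0 higher in wild-type retinas (median −0.80). Their summed level in log2 was 21.8 and 22.0 with minocycline, 21.6 and 21.7 with NaCl and 22.2 on both unexposed Cln3Δex7/8 arrays, against 21.4 and 21.6 with light and 22.2 and 21.9 without light in wild-type retinas. Of 10 cone markers, 3 were lower in Cln3Δex7/8 (median −0.24) and 5 in wild-type retinas (median −0.60). Ganglion cells have no photoreceptor cilium, and of 10 of their markers 5 were lower in Cln3Δex7/8 (median −0.81) and 7 in wild-type retinas (median −0.89). No cone or ganglion cell marker was called higher in either genotype. In Cln3Δex7/8 retinas 4 of 10 cone and 4 of 10 ganglion cell markers had a positive change, and in wild-type retinas 0 of each. Microglial markers were higher for 5 of 9 genes in Cln3Δex7/8 and 2 of 9 in wild-type retinas, and reactive Müller glia markers for 4 of 10 and 3 of 10. In wild-type retinas the Müller glia markers averaged 10.7 on both light-exposed arrays, against 8.02 and 10.4 on the unexposed ones, and the microglial markers 7.56 and 7.43, against 6.31 and 7.56. Unexposed array 2 thus lay close to or among the light-exposed arrays in both lists. The part of these cell types in the members' changes was not tested.

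**Figure D5:**
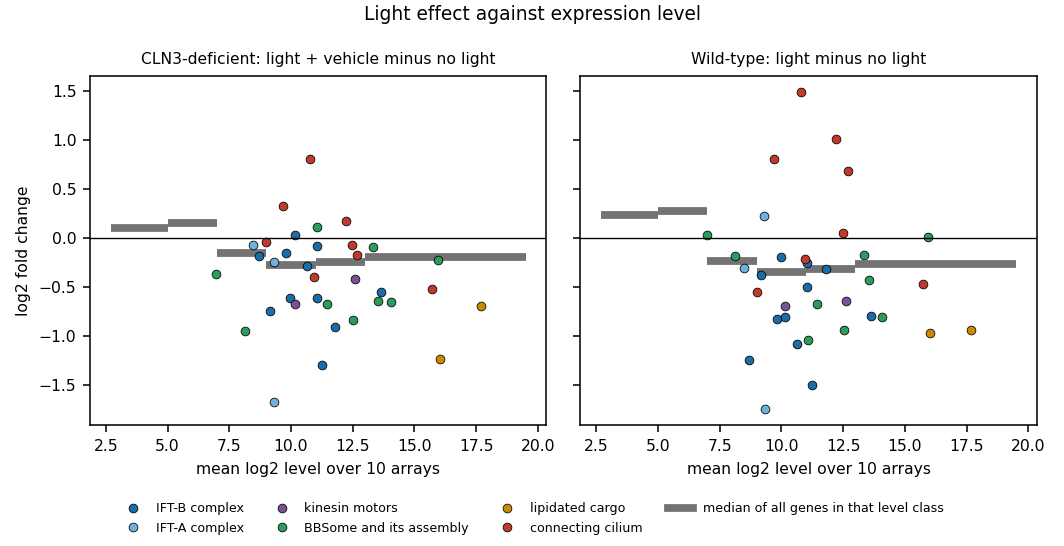
Log2 fold change after light against the mean log2 signal of each gene, for the 35 members (points, coloured by role) and as the median of all genes in 6 classes of signal (grey bars), with Cln3Δex7/8 retinas on the left and wild-type retinas on the right. The median of all genes is above 0 in the 2 dimmest classes and below 0 in the others, and 24 of the members have a mean signal of 10 or more.

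The changes also ran with signal. Light-exposed arrays had a narrower spread of values, with an interquartile range of 5.41 with minocycline, 5.29 and 5.31 with NaCl and 5.01 and 5.22 in light-exposed wild-type retinas, against 5.64 to 5.77 on the 4 unexposed arrays. Among the 5593 genes with a mean of 10 or more, the median change was −0.25 (−0.245) in Cln3Δex7/8 retinas, with 21.3% lower and 8.65% higher, and −0.31 (−0.305) in wild-type retinas, with 26.8% lower and 7.87% higher. The 24 members above that mean had 6 lower and 1 higher in Cln3Δex7/8 retinas (median −0.47) and 10 lower and 2 higher in wild-type retinas (median −0.57). The 11 members under it, which include Ift122 and Bbs12, had 2 lower in each genotype and medians of −0.24 and −0.31.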

How the data were processed

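Retinal RNA was extracted with a column kit and hybridised to Affymetrix arrays, which the series design calls Clariom S, while the methods name another Affymetrix design. The deposited values are log2 signals per transcript cluster, normalized by the authors. Their processing notes name Affymetrix Expression Console without a version, with algorithm and genome build not given in the sources used here. Arrays give no read depth, so their number, 2 per group, limits the precision. Each limma P-value sets a difference between groups against the spread between duplicates, pooled over all groups and moderated across genes by eBayes.

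Of 22206 clusters, 19572 carried 1 gene symbol in the platform table, 0 carried several and 2634 were not listed. For 55 genes with several clusters the one with the highest mean was kept, which left 19505 genes. There were 0 columns of other series. The members and gene lists were chosen with earlier results of these data known. Group means of all 10 arrays were fitted with limma 3.58.1 in R 4.3.3 (eBayes), 7 contrasts were drawn, and P-values were adjusted by Benjamini-Hochberg over all genes in each contrast at a threshold of 0.05. The script was tested on simulated data. Every member could be named. Full statistics were kept for members called in at least 1 contrast, values on every array for at most 10 called members per contrast with the smallest P, and the others were given by range. Of the further ciliary genes the 3 largest falls and rises per light comparison were named. Alternatives were median centring, quantile normalization, dropping the dimmest 30% of genes, eBayes with trend and robust, a fit of the compared groups only, the unpaired test of the methods, every cluster, Y-linked transcripts as a covariate, and leaving out each array. Replicate numbers were given in accession order.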

Additional observations from a re-analysis of the deposited data

How the results depend on the processing

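No member called in a comparison changed direction in any alternative. The members' small medians between genotypes did, being 0.09 (0.085) after light and −0.07 (−0.065) with the Y-linked covariate, −0.06 without light-exposed wild-type array 1 and −0.08 (−0.075) without NaCl array 2, and 0.06 (0.055) between unexposed genotypes and −0.03 without unexposed wild-type array 2. For genotype by light the median was 0 and took either sign. Members lower after light in Cln3Δex7/8 retinas numbered 8, and 4 with quantile normalization, 4 with median centring, 13 in a fit of the compared groups only, 0 with the methods' t-test and 0 with the Y-linked covariate. The 1 higher member became 0 with the methods' t-test and the Y-linked covariate. In wild-type retinas the 12 lower members became 5, 0 and 2 with quantile normalization, the methods' t-test and the Y-linked covariate, and the 2 higher ones 0 and 1 with the methods' t-test and the covariate, while the compared groups alone gave 8 lower. For minocycline with light against no light, the 2 lower members became 1 with quantile normalization, 1 with median centring and 0 with the methods' t-test, and the 1 higher member became 0 with the compared groups only, the methods' t-test and the covariate. The causes were not tested. Between unexposed genotypes that t-test called 1 member, Ift74, at 11.11 on both Cln3Δex7/8 arrays and 11.14 on both wild-type arrays, whose spread was 0. At an unadjusted P under 0.05 that t-test found 13 members after light in Cln3Δex7/8 and 9 in wild-type retinas, and 0 with the size of change that the methods also require.

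Leaving out 1 array at a time gave 2 to 2 lower and 0 to 1 higher members in Cln3Δex7/8 retinas, 4 to 12 lower and 1 to 3 higher in wild-type retinas, and 0 to 2 lower and 0 to 0 higher with minocycline against no light. The other 4 comparisons gave 0 to 0. A lone array is then assumed to vary like the other groups. Quantile normalization changed the members' median to −0.25 in Cln3Δex7/8 and −0.19 in wild-type retinas, and over all genes gave 1932 lower and 1808 higher in wild-type retinas, against 3037 and 2044 as deposited. No paired analysis was possible because the labels give the groups no shared replicate numbers. With 2 arrays per group, a light effect had a median standard error of 0.24.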

Other observations

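Genes that modify the microtubules of cilia were looked at after the members' values were known, in a list of 12 of which 10 were measured. Atat1, the enzyme that acetylates alpha-tubulin, rose after light in both genotypes. It read 13.26 and 13.00 with light and NaCl, against 11.25 and 11.11 in unexposed Cln3Δex7/8 retinas (1.95, SE 0.27, adjusted P 0.00185), and 12.30 and 12.32 with light, against 11.40 and 11.60 in unexposed wild-type retinas (0.81, SE 0.27, adjusted P 0.0454). With minocycline it read 13.11 and 12.23, which was 1.49 above the unexposed Cln3Δex7/8 arrays (adjusted P 0.00896). Its groups did not overlap in any of these comparisons. With Y-linked transcripts as a covariate the change of Atat1 in Cln3Δex7/8 retinas was 1.07 (adjusted P 0.193), and in wild-type retinas the call was lost without any 1 of the 4 arrays, with changes of 0.71 to 0.91. Ttll1, a tubulin glutamylase subunit, fell in wild-type retinas (−1.15, adjusted P 0.0295), with light-exposed arrays at 11.75 and 12.82, against 13.51 and 13.35. Agbl4, a deglutamylase, rose in Cln3Δex7/8 retinas (0.88, adjusted P 0.0307).

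Of the Usher and periciliary genes, 8 of 10 were measured, also chosen after the members' values were known. None was called lower, and 3 had a negative change in Cln3Δex7/8 and 2 in wild-type retinas, among them Adgrv1 (−0.74 in Cln3Δex7/8 retinas, adjusted P 0.122, both exposed arrays below both unexposed). Pdzd7 rose in Cln3Δex7/8 retinas with NaCl (0.78, adjusted P 0.0411) and Clrn1 in wild-type retinas (1.14, adjusted P 0.0464), and Whrn was higher with minocycline and light than without light (0.93, adjusted P 0.0399). Pdzd7 was dim, at 5.83 and 5.45 with light and NaCl, against 4.69 and 5.04 without light.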
